A study of Rattus norvegicus with 9 samples.

Results

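Endothelial and blood-cord barrier genes were followed in RNA from the lumbar spinal cord of rats with a nerve injury, with and without drug treatment. The set was given by name and holds 10 genes: Cldn5, Pecam1, Flt1, Kdr, Abcb1a, Abcg2, Slc2a1, Mfsd2a, Vwf and Cdh5. Of the 34890 loci listed in the table, 32850 carry a gene name, and 8 of the 10 genes matched a row by name. Pecam1 and Abcb1a matched none and were not analysed here. All wild-type Sprague Dawley males, the animals fell into 3 groups with 3 biological replicates each. JA rats had a sham operation and were given saline. SNI rats had a spared nerve injury, in which the tibial and common peroneal nerves are tied and cut while the sural nerve is left whole, and were given saline. PLM rats had the same injury and were given paeoniflorin, a monoterpene glycoside of peony root, together with liquiritin, a flavonoid glycoside of licorice, by mouth. The labels give paeoniflorin as 20.65 mg/mL in all 3 PLM samples, and liquiritin as 3.98, 3.99 and 3.100 mg/mL in PLM replicates 1, 2 and 3. The study's methods give 1 dose for the PLM group, with 3.98 mg/mL of liquiritin, so the labels do not establish that the replicates differed in dose. The tissue was the injured side of the L3-L6 cord after 21 days of dosing, so the injury was in a peripheral nerve and the cord itself was not cut. PLM therefore differs from JA by both injury and drugs, and no group received the drugs without the injury. Whether a replicate was 1 animal or a pool was not given in the labels.

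Capillaries of the spinal cord are lined by endothelial cells that are sealed to each other by tight junctions, take up few vesicles and carry nutrients and drugs across by dedicated transporters. Cldn5 encodes claudin-5, the main claudin of these junctions, and Cdh5 encodes VE-cadherin, which holds endothelial cells together at adherens junctions. Slc2a1 encodes the glucose transporter GLUT1, Mfsd2a a carrier of lysolipids that also restrains transcytosis, and Abcg2 a drug efflux pump at the luminal face. Flt1 and Kdr encode the VEGF receptors VEGFR1 and VEGFR2, and Vwf encodes von Willebrand factor, which endothelial cells store and which binds platelets. In whole cord tissue a lower level of such a gene can come from fewer endothelial cells or from less RNA per cell, and these cannot be told apart here.

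The tables used here hold start-site sequences for 6 of the 10 genes, from RefSeq on the rat build GRCr8. The 250 bases before the start of Cldn5 and of Slc2a1 are printed because these were the most abundant pair and because their ratio is described later. Capitals mark the GC box GGGCGG, read as CCGCCC on the other strand, and the hypoxia response core ACGTG, read as CACGT on the other strand. Both are written 5′ to 3′ on the gene's own strand, Cldn5 from chr11:95718599-95718848 (minus strand) and Slc2a1 from chr5:138002272-138002521 (plus strand).
Cldn5: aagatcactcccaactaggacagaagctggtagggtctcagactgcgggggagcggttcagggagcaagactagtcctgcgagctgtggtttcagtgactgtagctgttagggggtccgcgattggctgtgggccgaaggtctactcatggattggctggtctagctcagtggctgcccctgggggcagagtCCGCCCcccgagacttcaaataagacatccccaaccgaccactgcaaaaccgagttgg
Slc2a1: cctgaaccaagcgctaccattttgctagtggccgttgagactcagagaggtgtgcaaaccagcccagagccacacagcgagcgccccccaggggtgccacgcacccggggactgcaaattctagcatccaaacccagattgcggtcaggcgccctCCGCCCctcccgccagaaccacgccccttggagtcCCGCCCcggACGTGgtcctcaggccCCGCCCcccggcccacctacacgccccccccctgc
In Cldn5 there was 1 GC box, 58 to 53 bases before the start, and no ACGTG. In Slc2a1 there were 3 GC boxes, the nearest 35 to 30 bases before the start, and 1 ACGTG at 51 to 47 bases. The GC box was in 6 of 6 of these promoters and in 30.5% of all 33469 promoters of this length. ACGTG was in 1 of 6 and in 16.6% of all. The motif AGGAAG, the core bound by ETS factors, which reads CTTCCT on the other strand, was in 2 of 6 and in 29.5% of all, and it was in neither printed sequence. Motifs were searched on both strands and none of the printed ones overlap. A match is a string of letters in this window and no measure of binding.

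The unit of every level is TPM, a length-corrected share of the transcripts of a library, so levels of different genes can be set side by side. TPM keeps no read depth, and the depth of each library is unknown. All 8 genes were well above 1 TPM in every library. Cldn5 was the highest with a mean of 242.6 TPM over 9 samples, and Slc2a1 followed with 139.8 TPM. Flt1 had a mean of 66.4 TPM, Vwf 43.6 TPM, Mfsd2a 40.8 TPM and Abcg2 31.5 TPM. The adhesion gene Cdh5 had a mean of 14.5 TPM and Kdr, the lowest, 5.08 TPM. The 9 values of Vwf and Mfsd2a overlapped and Vwf was higher in 6 of 9 samples. Mfsd2a overlapped Abcg2, and Abcg2 overlapped Cdh5, although in each of these pairs the gene named first was the higher one in 9 of 9 samples. The other 4 neighbours in this order did not overlap in any sample. The spread over all 9 samples was smallest for Flt1, with a coefficient of variation of 9.47%, and largest for Kdr with 26.6% and Abcg2 with 23.4%.

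**Figure D1:**
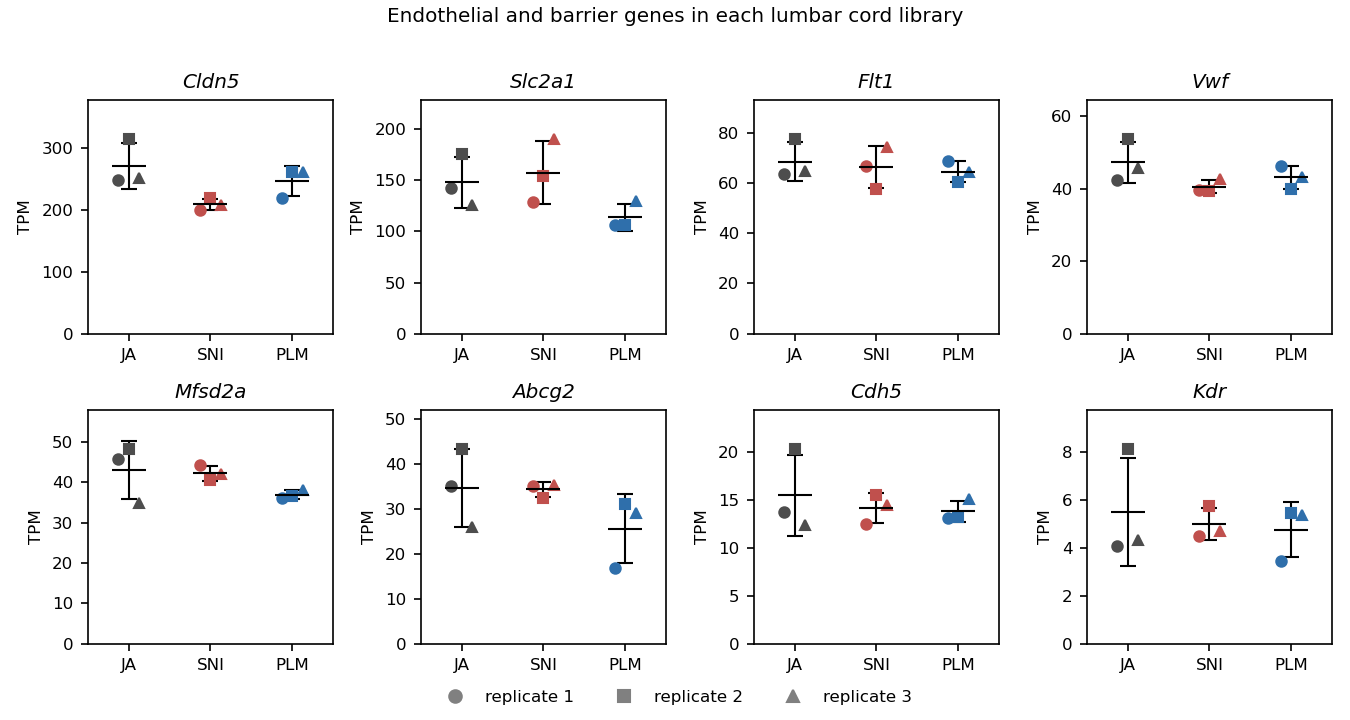
TPM of the 8 genes in each library, 1 panel per gene with its own axis. Points are the 3 replicates of JA, SNI and PLM, marked by shape, and black lines show the group mean ± SD. Cldn5 is between 200.18 and 219.38 TPM in the 3 SNI samples and between 248.65 and 314.50 TPM in the 3 JA samples.

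The libraries differed in ways that bear on all of these levels. The 13 protein genes of the mitochondrial genome took 25.3% to 32.8% of TPM in JA, 23.7% to 26.1% in SNI and 31.3% to 32.8% in PLM. The median log2(TPM + 1) of a library was 3.30 to 3.46 in JA, 3.47 to 3.53 in SNI and 3.18 to 3.30 in PLM, so SNI and PLM did not overlap in either measure. Each comparison is therefore given as deposited and also after centring, where every library has its own median subtracted. JA replicate 2 stood apart: it was the highest of 9 libraries for 7 of the 8 genes, and the highest JA library for 8 of 8. Its mean centred log2 level over the 8 genes was 5.82, against 5.35 and 5.40 in the other JA libraries, 5.21 to 5.41 in SNI and 5.39 to 5.50 in PLM. The same library had the highest summed level of 21 mural cell genes, 920.1 TPM against 468.2 to 674.5 TPM elsewhere, and the lowest of 20 neuronal genes, 4503 TPM against 5236 to 9818 TPM elsewhere. Among the 20 astrocyte, 16 oligodendrocyte, 20 neuronal and 15 microglial markers with a row, 0 were at 0 in all libraries.

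To ask whether the nerve injury moved these genes, the 3 SNI libraries were compared with the 3 JA libraries. Cldn5 was the gene that differed most. It measured 248.65, 314.50 and 251.66 TPM in JA and 200.18, 219.38 and 207.53 TPM in SNI. Every SNI value was below every JA value. The difference on the log2(TPM + 1) scale was -0.37 (SE 0.11, 95% interval -0.63 to -0.10), and after adjustment over all 15557 loci with limma it did not pass (unadjusted p = 0.0136, adjusted p = 0.614). On centred values it was -0.49 (95% interval -0.79 to -0.19, limma, adjusted p = 0.889). Without JA replicate 2 the Cldn5 difference was -0.26 as deposited and -0.38 centred, and it stayed below 0 in each of the 15 alternatives to the deposited fit. Some of these, the 2 other filters, the fit to all 9 libraries and the replicate block, cannot change a fold change.

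Vwf measured 42.39, 53.56 and 45.55 TPM in JA and 39.59, 39.26 and 42.63 TPM in SNI. The SNI values were at the low end, and SNI replicate 3 was just above JA replicate 1. Its difference was -0.21 as deposited (limma, adjusted p = 0.614) and -0.33 centred (limma, adjusted p = 0.889), and without JA replicate 2 it was -0.12 and -0.24. Cdh5, with 13.71, 20.28 and 12.37 TPM in JA against 12.48, 15.52 and 14.42 TPM in SNI, differed by -0.10 as deposited and -0.22 centred, and without JA replicate 2 by 0.11 and -0.01. Its groups overlapped throughout, and JA replicate 2 alone was above the SNI range.

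The VEGF receptors overlapped between the groups on both scales. Flt1 measured 63.51, 77.36 and 64.56 TPM in JA and 66.85, 57.72 and 74.34 TPM in SNI, a difference of -0.05 as deposited and -0.17 centred. Kdr measured 4.07, 8.12 and 4.31 TPM in JA and 4.50, 5.75 and 4.72 TPM in SNI, a difference of -0.07 as deposited (95% interval -0.64 to 0.50) and -0.19 centred (95% interval -0.80 to 0.41). For both receptors JA replicate 2 was the highest library as deposited. Without that library the Kdr difference was 0.20 as deposited and 0.08 centred, and that of Flt1 0.04 and -0.08.

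The 3 transporters overlapped between the groups on both scales, and 2 of them changed sign with the scale. Slc2a1 measured 142.18, 175.39 and 126.09 TPM in JA and 128.41, 153.94 and 190.02 TPM in SNI, a difference of 0.08 as deposited (95% interval -0.34 to 0.51) and -0.04 centred. Mfsd2a, with 45.92, 48.25 and 34.86 TPM in JA and 44.21, 40.60 and 42.03 TPM in SNI, differed by -0.01 as deposited and -0.13 centred. Abcg2, with 34.95, 43.24 and 25.87 TPM in JA and 35.13, 32.44 and 35.26 TPM in SNI, differed by 0.01 as deposited and -0.11 centred. Without JA replicate 2 the differences of Slc2a1, Mfsd2a and Abcg2 were 0.21, 0.08 and 0.18 as deposited and 0.09, -0.04 and 0.06 centred. All 3 groups of JA values spanned wide ranges, and the SNI values of Mfsd2a and Abcg2 lay inside them.

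Of the 8 genes, 0 passed the adjusted threshold of 0.05 in SNI versus JA, where the background was 0% of 15557 loci called by limma. At an unadjusted p under 0.05 there was 1 of 8, Cldn5, against 7.1% of all loci, and on centred values 2 of 8, Cldn5 and Vwf, against 4.83%. The groups did not overlap for 1 of 8 genes, against 13.8% of all loci, and for the same 1 of 8 after centring, against 10.9%. The median difference of the 8 genes was -0.06 beside a median of 0.12 over all loci tested, and 0 of 8 genes lay above that median. After centring it was -0.18 beside -0.01, with 8 of 8 below 0, where 51.4% of all loci were below 0. Without JA replicate 2 these medians were 0.09 as deposited and -0.03 centred.

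Markers of other cells were compared in the same way, and single JA libraries moved several of these lists. All 20 astrocyte markers were above 0 as deposited and 17 centred, with medians of 0.45 and 0.33, but without JA replicate 3 the medians were 0.17 and 0.08, with 15 and 13 above 0, and without JA replicate 1 they were 0.74 and 0.58. All 20 neuronal markers were above 0 on both scales, with medians of 0.34 and 0.21, and of 0.21 and 0.09 without JA replicate 2. Oligodendrocyte, microglial and fibroblast and meningeal markers had medians of -0.07, -0.11 and -0.18 as deposited and of -0.19, -0.23 and -0.30 centred. Without 1 library the fibroblast and meningeal median ranged over -0.36 to 0.01 as deposited and -0.49 to -0.10 centred, lying nearest 0 without SNI replicate 1, and without JA replicate 3 it was -0.08 and -0.16. The microglial median was -0.01 and -0.13 without JA replicate 2. The 10 blood markers tested had medians of 0.02 and -0.10, which ranged over -0.14 to 0.24 and -0.26 to 0.14 without 1 library. Of these 6 lists 0 markers were called by limma on either scale, where between 0 and 4 a list had an unadjusted p under 0.05. Without JA replicate 1, 13 astrocyte and 13 neuronal markers had such a p as deposited, and limma called 1 neuronal marker, Nefm, named after its values were seen. Centred without that library, 12 astrocyte, 8 neuronal, 11 oligodendrocyte, 6 microglial, 3 fibroblast and meningeal and 0 blood markers had such a p, and 0 were called. Their part in the values of the 8 genes was not tested.

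**Figure D2:**
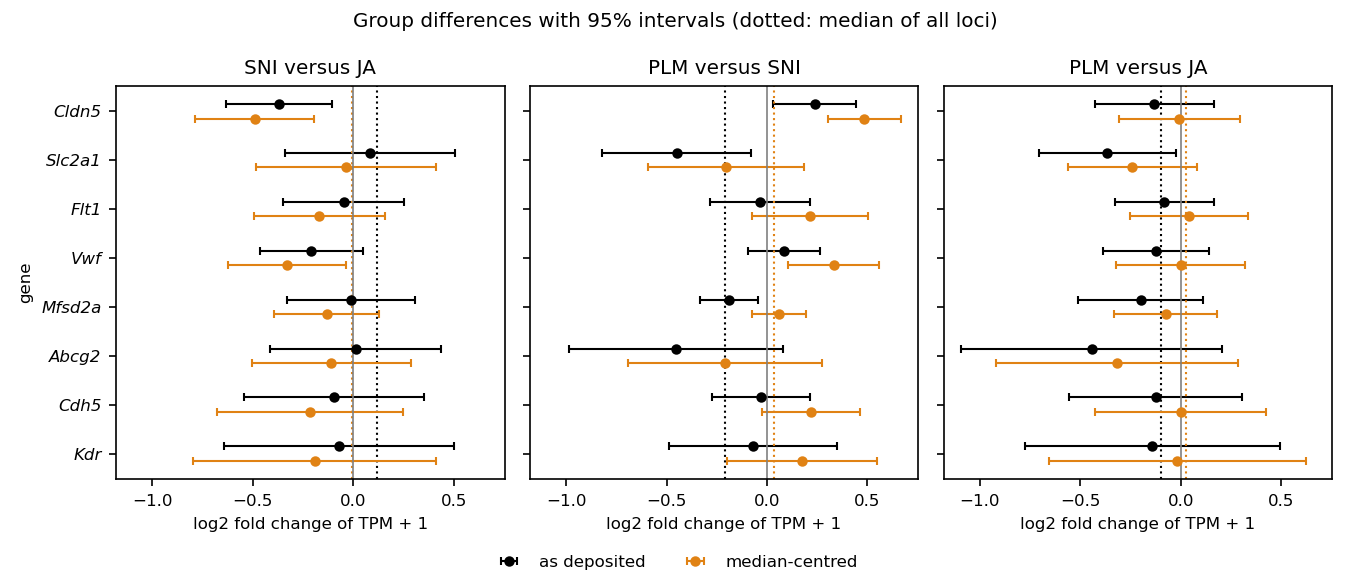
Log2 fold changes of the 8 genes from limma with 95% intervals, 1 panel per comparison, as deposited and median-centred. The dotted lines are the medians over all loci tested, 0.12, -0.21 and -0.10 as deposited for SNI versus JA, PLM versus SNI and PLM versus JA. Cldn5 shows the largest centred differences of the 8 genes in SNI versus JA and PLM versus SNI, -0.49 and 0.48, and 0 of 8 genes passed the adjusted threshold in any panel.

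To ask whether the drug combination moved these genes in injured animals, PLM was compared with SNI. The scale matters most here, since 85% of the 15474 loci were below 0 as deposited and 42.4% after centring, and the median over all loci was -0.21 as deposited and 0.04 centred. This comparison shares the SNI libraries with the one before, so a gene low in SNI is pushed towards a higher value here.

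Cldn5 measured 218.80, 261.70 and 261.29 TPM in PLM, beside the 200.18, 219.38 and 207.53 TPM in SNI. As deposited, PLM replicates 2 and 3 were above all SNI values and PLM replicate 1 was level with SNI replicate 2. The difference was 0.24 as deposited (95% interval 0.03 to 0.44, limma, adjusted p = 0.102). After centring, all 3 PLM values were above all SNI values, and the difference was 0.48 (SE 0.07, 95% interval 0.30 to 0.67, unadjusted p = 0.000525, limma, adjusted p = 0.0568). That adjusted p was the lowest of any of the 8 genes in any fit or alternative, and it did not pass 0.05. Leaving out 1 library at a time kept the centred Cldn5 difference between 0.44 and 0.54, with adjusted p from 0.0760 to 0.186 in limma.

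Slc2a1 lay on the other side. It measured 106.28, 106.49 and 129.27 TPM in PLM against 128.41, 153.94 and 190.02 TPM in SNI. PLM replicate 3 was just above SNI replicate 1, so the groups met at their edge. The difference was -0.45 as deposited (95% interval -0.82 to -0.08, limma, adjusted p = 0.0910) and -0.20 after centring (limma, adjusted p = 0.578). Without SNI replicate 3, the highest library for this gene, it was -0.31 as deposited and -0.04 centred.

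The lysolipid carrier Mfsd2a measured 36.16, 36.64 and 38.13 TPM in PLM against 44.21, 40.60 and 42.03 TPM in SNI. The 2 groups did not overlap, and PLM was the lower one. The difference was -0.19 as deposited (95% interval -0.33 to -0.04, limma, adjusted p = 0.0798), whereas after centring the groups also did not overlap but PLM was the higher one, by 0.06 (limma, adjusted p = 0.637). The direction for Mfsd2a was thus set by the scale.

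The efflux pump Abcg2 measured 16.71, 31.00 and 29.04 TPM in PLM against 35.13, 32.44 and 35.26 TPM in SNI. All PLM values were lower, and PLM replicate 1 was far below the rest. The difference was -0.45 as deposited (95% interval -0.99 to 0.08, limma, adjusted p = 0.182) and -0.21 centred. Without PLM replicate 1 it was -0.19 as deposited and 0.03 centred.

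Vwf measured 46.22, 39.90 and 43.15 TPM in PLM against 39.59, 39.26 and 42.63 TPM in SNI. The groups overlapped as deposited and did not overlap after centring, with PLM higher. The difference was 0.09 as deposited and 0.33 centred (95% interval 0.11 to 0.56, unadjusted p = 0.0110, limma, adjusted p = 0.167). Cdh5 measured 13.12, 13.22 and 15.08 TPM in PLM against 12.48, 15.52 and 14.42 TPM in SNI, with a difference of -0.03 as deposited and 0.22 centred. Its PLM values fell inside the SNI range as deposited and above it after centring. The VEGF receptors behaved alike in sign, Flt1 with 68.78, 60.38 and 64.34 TPM and Kdr with 3.45, 5.47 and 5.36 TPM in PLM. Both overlapped SNI on either scale, with differences of -0.03 and -0.07 as deposited and of 0.21 and 0.18 centred.

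In PLM versus SNI 0 of 8 genes passed the adjusted threshold as deposited, where limma called 13.9% of all loci, and 0 of 8 after centring, where it called 0.814%. Those backgrounds rest on single libraries. limma called 2148 loci as deposited, 1494 without SNI replicate 2 and 275 to 700 without any other 1 of the 6 libraries. On centred values it called 126, 85 without PLM replicate 1, 2 to 22 without SNI replicate 2 or 3 or PLM replicate 2 or 3, and 0 without SNI replicate 1. With the replicate number as a block it called 152 as deposited and 0 centred. At an unadjusted p under 0.05 there were 3 of 8 as deposited, Cldn5, Slc2a1 and Mfsd2a, against 37.1% of all loci, and 2 of 8 centred, Cldn5 and Vwf, against 16.9%. The groups did not overlap for 2 of 8 as deposited, against 43.5% of all loci. After centring they did not overlap for 4 of 8, Cldn5, Mfsd2a, Vwf and Cdh5, all higher in PLM, against 23.8% of all loci in either direction and 14.1% with PLM higher. The median of the 8 genes was -0.05 beside -0.21 over all loci as deposited, and 0.19 beside 0.04 centred. Of the 8 genes, 6 lay above the median of all loci on both scales, and the 2 that did not were Slc2a1 and Abcg2.

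Markers of other cells differed between these 2 groups. All 20 astrocyte markers were below 0 on both scales, with a median of -1.35 as deposited and -1.11 centred. Of these, limma called 19 lower as deposited and 12 centred, where it called 13.6% of all loci lower as deposited and 0.685% centred. At an unadjusted p under 0.05 in limma there were 19 of 20 on each scale, against 37.1% and 16.9% of all loci. Without 1 library 15 to 19 fell as deposited and 0 to 9 centred, 0 of them without SNI replicate 1 or 2 or PLM replicate 2 or 3, and with the replicate block 15 and 0 fell. Their summed level was 7976 to 9330 TPM in SNI, 4342 to 5039 TPM in PLM and 5519 to 9054 TPM in JA. Gfap, the intermediate filament gene of astrocytes, had a mean of 241.2 ± 22.1 TPM in PLM and 587.8 ± 28.3 TPM in SNI (SD, n = 3 each) and fell by 1.28 as deposited and 1.04 centred (limma, adjusted p = 0.00396 and 0.0263). Ntsr2, a neurotensin receptor of astrocytes, fell by 1.55 and 1.30 (limma, adjusted p = 0.00477 and 0.0263). Both were called as deposited without each library in turn and with the replicate block, while on centred values the call held without PLM replicate 1 and was lost without any other 1 of the 6 libraries and with the block. Of 11 blood markers tested 0 were called by limma, where 3 had an unadjusted p under 0.05 as deposited, and the summed level of the 14 with a row was 4158 to 7318 TPM in SNI, 8018 to 11257 TPM in PLM and 5421 to 11935 TPM in JA. Neuronal, oligodendrocyte, microglial and fibroblast and meningeal markers had medians of -0.26, -0.11, 0.07 and -0.52 as deposited and of -0.01, 0.14, 0.32 and -0.27 centred, and the fibroblast and meningeal ones were -0.30 and -0.05 without SNI replicate 2. As deposited limma called 1 microglial and 2 fibroblast and meningeal markers lower, 0 of them with the replicate block, and after centring 0 markers of these 4 lists. At an unadjusted p under 0.05 in limma there were 1 of 20, 8 of 16, 10 of 14 and 3 of 15 centred, against 16.9% of all loci. Without 1 library the oligodendrocyte count was 4 to 7 and the microglial count 7 to 10. Above 0 centred were 10, 16, 13 and 5 markers of the 4 lists, where 42.4% of all loci were below 0. The part of astrocyte, blood and other cell content in the values of the 8 genes was not tested.

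To place treated injured cords beside sham cords, PLM was compared with JA. It shares its libraries with the other comparisons. As deposited, 8 of 8 genes were below 0, where 71.2% of all loci were, and 6 of 8 after centring, where 43.7% were. These counts rest on JA replicate 2. Without it Flt1, Kdr and Cdh5 were above 0 as deposited, at 0.01, 0.13 and 0.08, and after centring only Abcg2, at -0.14, and Slc2a1, at -0.11, were below 0. The largest was Abcg2 at -0.44 (95% interval -1.09 to 0.21, limma, adjusted p = 0.569), followed by Slc2a1 at -0.37 (95% interval -0.71 to -0.02, limma, unadjusted p = 0.0394, adjusted p = 0.412). Abcg2 was at -0.27 and Slc2a1 at -0.24 as deposited without JA replicate 2. Without PLM replicate 1 Abcg2 was at -0.17 as deposited and -0.08 centred, and Slc2a1, at -0.32 and -0.23, was then the largest. The other 6 lay between -0.20 for Mfsd2a and -0.08 for Flt1. After centring, Cldn5, Kdr, Vwf and Cdh5 were within 0.02 of 0 and Flt1 was at 0.04, while Abcg2 was at -0.32 and Slc2a1 at -0.24. Thus 0 of 8 passed the adjusted threshold, where limma called 0.0195% of 15349 loci as deposited and 0.013% centred. At an unadjusted p under 0.05 there was 1 of 8 as deposited, against 11.8% of all loci, and 0 of 8 centred, against 9.98%. The groups overlapped for 8 of 8 genes on both scales, and 17.7% of all loci did not overlap as deposited and 16.4% centred. The median of the 8 genes was -0.14 beside -0.10 over all loci, and -0.01 beside 0.03 centred. The median of the 8 was -0.03 as deposited and 0.10 centred without JA replicate 2. Of 20 astrocyte markers all were below 0 on both scales, with medians of -0.90 as deposited and -0.77 centred. Fibroblast and meningeal markers had medians of -0.64 and -0.51, blood markers of 0.50 and 0.63, neuronal markers of 0.24 and 0.37, oligodendrocyte markers of -0.10 and 0.02 and microglial markers of -0.08 and 0.04. These medians moved with single JA libraries: the astrocyte ones were -0.56 and -0.48 without JA replicate 1, the neuronal ones 0.07 and 0.20 without JA replicate 2, the blood ones 0.26 and 0.34 without JA replicate 1, and the fibroblast and meningeal ones -0.44 and -0.28 without JA replicate 3. The microglial ones were 0.03 and 0.16 without JA replicate 2, and the oligodendrocyte ones -0.15 and -0.07 without JA replicate 1. Of these 6 lists 0 markers were called by limma on either scale, where 14 astrocyte markers as deposited and 10 centred, and between 0 and 9 of each other list, had an unadjusted p under 0.05. Without JA replicate 3 limma called 2 astrocyte markers and 1 fibroblast and meningeal marker lower as deposited, Gfap, Aqp4 and Igf2, named after their values were seen. Their part in the values of the 8 genes was not tested.

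By the thresholds of the study's methods, an unadjusted p under 0.05 with an absolute log2 fold change above 1, 0 of 8 genes passed in each of the 3 comparisons, where 0.688%, 1.65% and 0.938% of loci passed in SNI versus JA, PLM versus SNI and PLM versus JA. After centring it was again 0 of 8, where 0.534%, 1.07% and 0.658% of loci passed. The intervals bound the differences. Over the 8 genes and 3 comparisons, on both scales, the widest 95% limits were -1.09 and 0.67, so a change of the size these thresholds ask for was outside the interval of every gene but Abcg2 in PLM versus JA.

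The 8 genes were set beside each other within each library. Cldn5 and Slc2a1, the most abundant pair, differed in opposite directions in PLM versus SNI, and their ratio does not depend on how a library is scaled. This pair was chosen after its values were seen, so the ratio is a description without a test. Cldn5 over Slc2a1 was 1.75, 1.79 and 2.00 in JA, 1.56, 1.43 and 1.09 in SNI and 2.06, 2.46 and 2.02 in PLM. The SNI ratios were the lowest and the PLM ratios the highest, and no 2 groups overlapped. The group means were 1.85 ± 0.13, 1.36 ± 0.24 and 2.18 ± 0.24 (SD, n = 3 each). Among all 28 pairs of the 8 genes, the ratio did not overlap between SNI and JA for 5 pairs, 4 of them with Cldn5, between PLM and SNI for 9 pairs, 5 of them with Cldn5, and between PLM and JA for 2 pairs. Among all pairs of loci above 0 TPM in all 6 libraries and averaging 1 TPM or more, the ratio did not overlap for 10.7%, 23.5% and 16.1%. Cldn5 over Slc2a1 was the 1 pair that did so in all 3 comparisons, which share libraries.

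**Figure D3:**
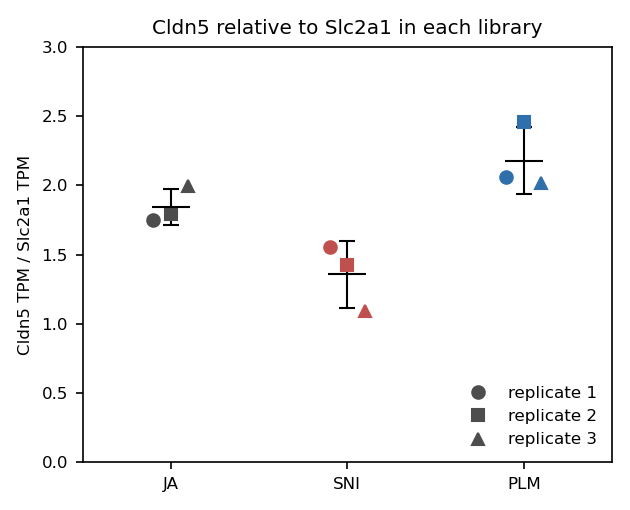
Ratio of Cldn5 TPM to Slc2a1 TPM in each library, with the 3 replicates of each group as points and black lines for the group mean ± SD. The SNI points lie between 1.09 and 1.56, the JA points between 1.75 and 2.00 and the PLM points between 2.02 and 2.46.

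Correlations between the genes across the 9 libraries rested largely on JA replicate 2. The median Pearson correlation over the 28 pairs was 0.50 as deposited, with a range of 0.01 to 0.85 and 28 of 28 above 0, and 0.50 centred, with a range of -0.15 to 0.89 and 26 of 28 above 0. Over all pairs of loci averaging 1 TPM or more the median was 0.25 as deposited, with 69.8% above 0, and 0.01 centred, with 51.0% above 0. Without JA replicate 2 the median over the 28 pairs was 0.08 as deposited, with 16 above 0, and 0.11 centred, with 17 above 0, beside medians of 0.30 and 0.02 over all pairs. The highest centred pair was Flt1 with Vwf at 0.89, followed by Kdr with Cdh5 at 0.85 and Cldn5 with Vwf at 0.83, and these were 0.86, 0.62 and 0.76 without that library. The lowest was Abcg2 with Vwf at -0.15, and Cldn5 with Slc2a1 gave 0.09, and these were -0.71 and -0.32 without it. Against the mean of the other genes, the centred correlation was 0.90 for Cdh5, 0.80 for Kdr and 0.71 for Cldn5, and the lowest were Slc2a1 at 0.46 and Abcg2 at 0.35. As deposited the order differed: Cdh5 at 0.85 and Kdr at 0.78 were again the highest, Slc2a1 was at 0.67 and Abcg2 at 0.69, and the lowest were Cldn5 at 0.48, Flt1 at 0.45 and Vwf at 0.45. The centred values without JA replicate 2 were 0.70 for Cdh5, 0.42 for Kdr, 0.61 for Cldn5, -0.08 for Slc2a1 and -0.34 for Abcg2. The deposited ones without it were 0.49 for Cdh5, 0.39 for Kdr, 0.65 for Slc2a1 and 0.67 for Abcg2. Those of Cldn5, Flt1 and Vwf were then below 0, at -0.23, -0.16 and -0.58. The libraries share groups and scaling, so these values are descriptions.

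**Figure D4:**
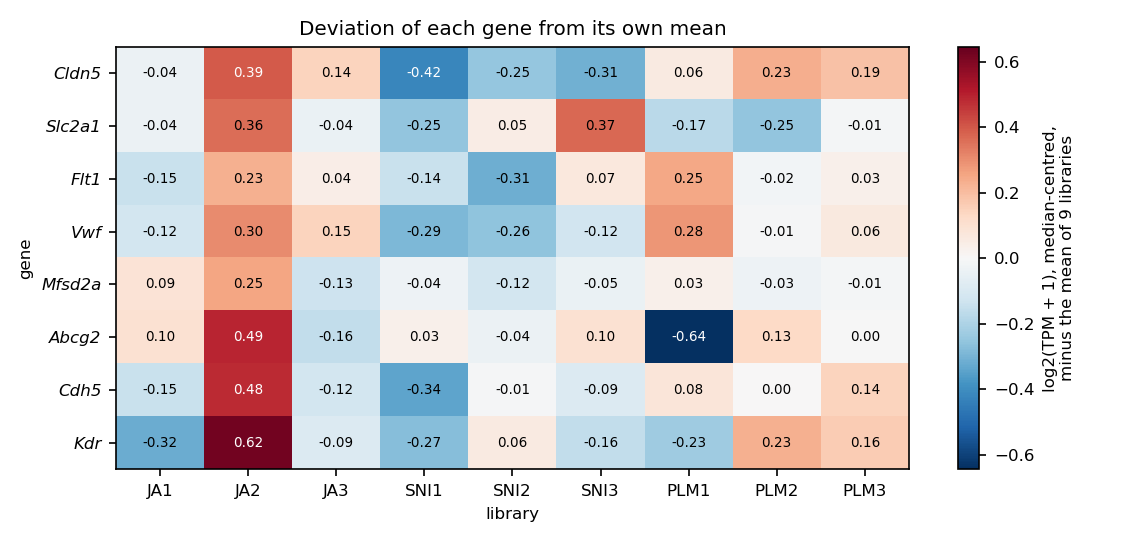
Median-centred log2(TPM + 1) of the 8 genes in the 9 libraries, each gene shown as its distance from its own mean over the libraries. JA replicate 2 is above 0 for 8 of 8 genes, from 0.23 for Flt1 to 0.62 for Kdr, Cldn5 is below 0 in all SNI libraries and above 0 in all PLM libraries, and the lowest cell is Abcg2 in PLM replicate 1 at -0.64.

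Genes whose pattern over the 9 libraries was most like the mean of the 8 were ranked by Pearson correlation among 13945 genes. On centred values they were Eng (0.98), St6galnac2, Adgra2 (0.95), Lcp2, Hmgxb4, Spata13, Map3k3 and Fam149a (0.92). As deposited they were Slc19a3 (0.98), Adgra2 (0.97), Pde3a, Eng (0.96), Col4a5, Spata13, St6galnac2 and Gng12 (0.94). Of these, 4 were in both lists. Eng encodes endoglin, a TGF-beta co-receptor of endothelium, and Adgra2 encodes GPR124, a co-receptor for Wnt7 signals to brain endothelium. Eng measured 22.64, 36.13 and 23.00 TPM in JA, 23.06, 24.52 and 26.51 TPM in SNI and 20.62, 24.29 and 25.55 TPM in PLM. JA replicate 2 was again the highest library, and the ranking includes it.

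The wider vascular and barrier programme was described by lists in PLM versus SNI, the comparison in which list genes were called. Some genes stand in more than 1 list. Genes counted as fallen or risen in a list are those that limma called lower or higher. Of 37 further endothelial genes tested, 0 rose and 1 fell as deposited, where limma called 0.246% of all loci higher and 13.6% lower. After centring 1 rose and 1 fell, where 0.129% and 0.685% of all loci were called, and 34 of 37 were above 0, where 42.4% of all loci were below 0. At an unadjusted p under 0.05 in limma there were 3 of 37 as deposited, against 37.1% of all loci, and 16 of 37 centred, against 16.9%. The centred count was 9 without SNI replicate 1 or PLM replicate 2, 10 without PLM replicate 3, 16 to 18 without any other 1 library and 16 with the replicate block. Further calls in the lists are read against these same shares, and every centred call named in them was lost without SNI replicate 1 and with the replicate block, where 0 loci were called. The median of this list was 0.05 as deposited and 0.30 centred, and -0.01 to 0.15 and 0.24 to 0.37 without 1 library. The gene that fell on both scales was S1pr1, a receptor for sphingosine-1-phosphate that is also expressed by astrocytes. It measured 56.06, 64.71 and 48.24 TPM in SNI and 27.00, 22.81 and 26.70 TPM in PLM, beside 52.00, 42.68 and 24.46 TPM in JA. The PLM values were at the level of the lowest JA library and below all SNI values. S1pr1 fell by 1.11 as deposited and 0.86 centred (limma, adjusted p = 0.00786 and 0.0496). As deposited it was called without each library in turn (limma, adjusted p up to 0.0409) and not with the replicate block (limma, adjusted p = 0.0502), and centred it was called in none of these fits (limma, adjusted p from 0.0748 to 0.197). The gene that rose after centring was Tie1, an orphan receptor of endothelium that acts with the angiopoietin receptor, named here after its values were seen. Tie1 measured 14.88, 12.52 and 12.84 TPM in SNI and 15.87, 17.21 and 17.44 TPM in PLM. All PLM values were higher, by 0.31 as deposited (limma, adjusted p = 0.0603) and by 0.56 centred (limma, adjusted p = 0.0357). Its centred call was lost without each of the 6 libraries in turn (limma, adjusted p from 0.0933 to 0.150) and with the block.

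**Figure D5:**
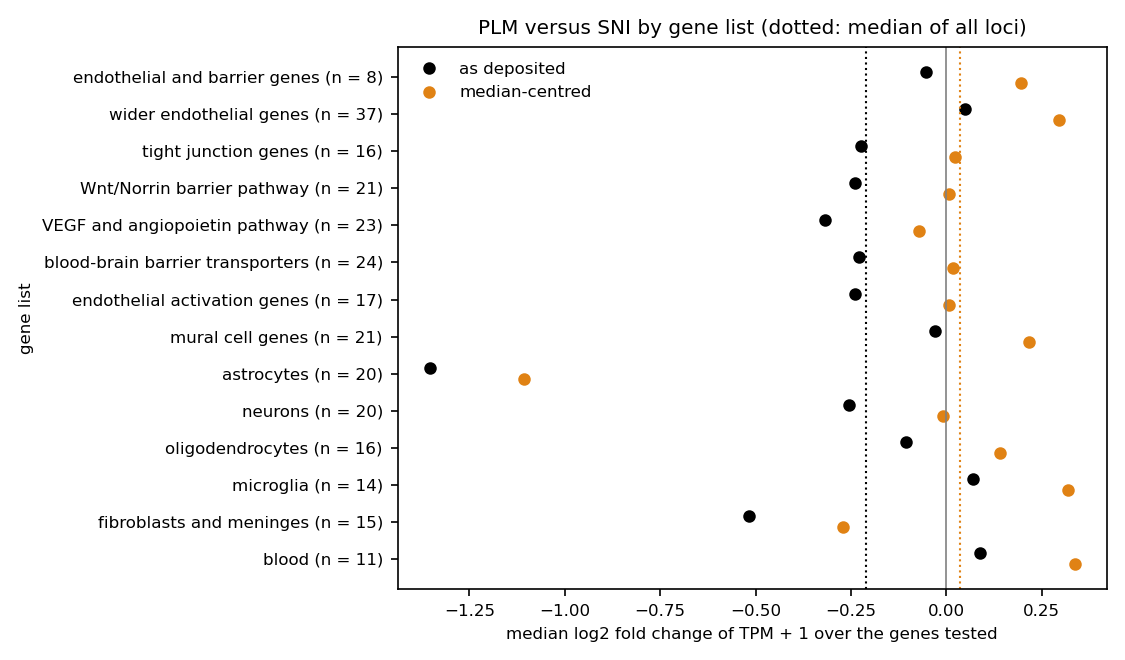
Median log2 fold change of each gene list in PLM versus SNI, as deposited and median-centred. Dotted lines are the medians over all loci, -0.21 and 0.04. The further endothelial genes have a median of 0.30 after centring, the 8 genes described here 0.19, mural cell genes 0.22 and astrocyte markers -1.11.

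Of 16 tight junction genes tested, 2 fell as deposited, or 12.5% beside the 13.6% of all loci, and 0 of 16 were called after centring, where 5 had an unadjusted p under 0.05 in limma. The list median was -0.22 as deposited and 0.02 centred, beside -0.21 and 0.04 over all loci. The 2 calls became 0 to 2 without 1 library, 0 of them without SNI replicate 1 or any PLM library, and 0 with the replicate block. The Wnt and Norrin signals that induce and maintain the barrier come mainly from neural cells and glia and act on endothelial receptors. Of 21 genes of this pathway tested, 6 fell as deposited, 28.6% beside the 13.6% of all loci, and 0 were called centred, where 6 had an unadjusted p under 0.05 in limma. The medians were -0.24 and 0.01, close to those of all loci, and the 6 calls became 0 to 4 without 1 library, 0 of them without SNI replicate 1 or PLM replicate 1, and 1 with the replicate block. Its ligands Wnt7a and Wnt7b, named after their values were seen, were 2 of the 6. Wnt7a measured 8.33, 8.70 and 6.52 TPM in SNI and 3.06, 3.21 and 1.67 TPM in PLM, and Wnt7b 4.37, 5.29 and 3.35 TPM and 1.63, 1.74 and 1.26 TPM. All PLM values of both ligands were lower. The differences were -1.30 and -1.06 as deposited (limma, adjusted p = 0.0191 and 0.0195) and -1.05 and -0.81 centred (limma, adjusted p = 0.0986 and 0.102). Neither deposited call held without SNI replicate 1 or without PLM replicate 1, and that of Wnt7b was also lost without PLM replicate 2 or 3 and with the block.

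The receptors Flt1 and Kdr of the VEGF and angiopoietin pathway are described with the 8 genes. Of 23 further genes of this pathway, limma called 7 lower as deposited, 30.4% beside the 13.6% of all loci. After centring it called 0 lower and 1, Tie1, higher, and 8 had an unadjusted p under 0.05 in limma. Below 0 were 20 of 23 as deposited and 14 of 23 centred, where 85% and 42.4% of all loci were. The median was -0.32 as deposited and -0.07 centred, and the 7 calls became 1 to 3 without 1 library, the 1 without SNI replicate 1 or PLM replicate 2, and 0 with the replicate block. The ligand Vegfa, named after its values were seen, measured 11.83, 12.49 and 9.02 TPM in SNI and 6.87, 7.01 and 5.83 TPM in PLM. Its groups did not overlap, and the difference was -0.67 as deposited (limma, adjusted p = 0.0318) and -0.42 centred (limma, adjusted p = 0.209). The deposited call held without SNI replicate 3, and it was lost without any other 1 of the 6 libraries and with the block.

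Among 24 further transporters and receptors of the barrier, limma called 6 lower and 1 higher as deposited, and 2 lower and 1 higher after centring. The 6 are 25.0% beside the 13.6% of all loci called lower, and the 2 are 8.33% beside 0.685%. The medians were -0.23 and 0.02. At an unadjusted p under 0.05 in limma there were 9 of 24 as deposited, against 37.1% of all loci, and 11 of 24 centred, against 16.9%. These counts were 8 to 13 and 9 to 14 without 1 library, and 9 and 11 with the replicate block. Without 1 library 4 to 5 fell and 0 to 1 rose as deposited, and 0 to 1 fell and 0 rose centred, while with the replicate block 1 fell as deposited and 0 were called centred. Slc27a1, a fatty acid transport protein, measured 46.44, 39.35 and 39.83 TPM in SNI and 18.96, 19.53 and 20.02 TPM in PLM, and fell by 1.06 as deposited and 0.81 centred (limma, adjusted p = 0.00477 and 0.0263). Lrp1, an endocytic receptor for lipoproteins and amyloid, measured 28.74, 25.45 and 23.52 TPM in SNI and 13.22, 14.35 and 14.16 TPM in PLM, and fell by 0.85 and 0.60 (limma, adjusted p = 0.00686 and 0.0321). In both genes the 3 PLM values were close together and below all SNI values. Ager, the receptor for advanced glycation end products, measured 1.73, 2.52 and 2.02 TPM in SNI and 3.58, 4.92 and 6.03 TPM in PLM, and rose by 0.91 and 1.15 (limma, adjusted p = 0.0335 and 0.0496). It was a low gene whose PLM values were all above the SNI values. Slc27a1 was called as deposited without each library in turn and with the block, and centred without PLM replicate 1. Lrp1 was called as deposited without each library and not with the block (limma, adjusted p = 0.0525). Ager was called as deposited without SNI replicate 2 or PLM replicate 1. The remaining fits of these 3 genes that left out 1 library or used the block gave no call. Slc27a1, Lrp1 and S1pr1 are not restricted to endothelium in the cord, and the part of other cells in their values was not tested.

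Of 17 endothelial activation genes and 21 mural cell genes tested, 0 were called on either scale in PLM versus SNI, where 4 and 2 had an unadjusted p under 0.05 as deposited in limma, and 1 and 5 centred. The median of the activation list was -0.24 as deposited and 0.01 centred, and that of the mural list -0.03 and 0.22, with 19 of 21 mural genes above 0 after centring. Without SNI replicate 1 the centred mural median was 0.10, with 15 of 21 above 0, and without PLM replicate 3 it was 0.14. As deposited without 1 library the mural median ranged over -0.14 to 0.06 and the activation median over -0.39 to -0.11. Without SNI replicate 3 limma called 1 activation gene lower as deposited. Without 1 library the centred medians of the activation, tight junction, Wnt and Norrin, VEGF and transporter lists ranged over -0.16 to 0.14, -0.01 to 0.08, -0.05 to 0.07, -0.11 to 0.05 and -0.04 to 0.10, so their sign rested on single libraries. In SNI versus JA and in PLM versus JA, 0 genes of these 7 lists were called by limma on either scale, and between 0 and 5 genes a list had an unadjusted p under 0.05. In SNI versus JA the 37 further endothelial genes had a median of -0.11 as deposited, with 29 below 0 and 0 at an unadjusted p under 0.05 in limma, and of -0.23 centred, with 35 below 0 and 5 at an unadjusted p under 0.05. Without JA replicate 2 the median was 0.01 as deposited, with 16 below 0, and -0.11 centred, with 24 below 0 and 1 at an unadjusted p under 0.05. In PLM versus JA 36 were tested, with a median of -0.10 as deposited and 0.02 centred, where 1 and 0 had an unadjusted p under 0.05 in limma. These medians were 0.04 and 0.17 without JA replicate 2.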

How the data were processed

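RNA of the injured side of the L3-L6 cord was sequenced in 9 libraries, 3 each of JA, SNI and PLM, grouped by the sample titles. The authors deposited 1 table of TPM values, made per the study's methods with HISAT2 and StringTie. The submitters' processing notes also name fastp 0.19.5, CASAVA and the build GRCh38.p13, a human build, while the identifiers in the table are rat Ensembl ones. No coordinates of the files were used. The study's own comparisons with DESeq2 were not used here, and tests made for counts were not run, since TPM keeps no depth and the counting error of each library is unknown.

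Groups were compared in pairs with limma 3.58.1 in R 4.3.3 on log2(TPM + 1), with a variance trend, no covariate and a filter that kept loci averaging 1 TPM or more in the 6 libraries fitted. p-values were adjusted by Benjamini-Hochberg over all loci kept and called at 0.05. Fold changes are differences of log2(TPM + 1), which are too small for low genes. Centring subtracts each library's median over the loci tested. All 8 genes found by name passed the filter in each comparison. List genes are named where they passed on both scales, at most 4 a list and 2 for other cell types, and Tie1, Wnt7a, Wnt7b, Vegfa, Nefm, Aqp4 and Igf2 fell outside this rule and were named after their values were seen. The members and lists were chosen with earlier results of these data known. p-values measure the spread between the deposited replicates. The calling was tested on simulated data drawn without shifts between libraries, so that test does not bear on the shifts seen here.

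Alternatives were centring, quantile normalization, TPM rescaled without the 13 mitochondrial protein genes, a pseudocount of 0.1, no filter, 1 TPM in every library, a fit to all 9 libraries, the replicate number as a block, the study's thresholds, and leaving out each library in turn. Leaving out libraries on centred values, the calls and medians of the lists without each library, the list calls with the block and the correlations without JA replicate 2 were added after seeing the data. Promoter sequences are from RefSeq (GRCr8). Values of 1 gene of the lists are not reported here.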

Additional observations from a re-analysis of the deposited data

How the results depend on the processing

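The count of the 8 genes called was 0 in each comparison under every alternative run, with limma adjusted p of at least 0.0568 (Cldn5, PLM versus SNI, centred) over the 360 values from the 15 alternatives and at least 0.0760 over the 144 obtained by leaving out 1 library on centred values. No pairing by replicate number was seen in the deviations of libraries from their group means. Those of same-numbered libraries correlated at -0.05 to 0.12 between SNI and JA, -0.02 to 0.03 between PLM and SNI and -0.02 to 0.11 between PLM and JA. For differently numbered libraries the ranges were -0.19 to 0.14, -0.04 to 0.04 and -0.07 to 0.09. Whether libraries shared a batch was not tested. With the replicate number as a block 0 of 8 were called in each comparison, with medians of -0.059, -0.052 and -0.14. The block cannot change these medians, since each group holds the same replicate numbers. The tests for counts planned for a count table were not run. Depth is unknown, so its limits cannot be given, and 3 libraries a group bound what can be seen. Signs followed the scaling and single libraries as given here, and the cause was not tested.

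The PLM versus SNI median was 0.19 centred, 0.19 centred with the replicate block, 0.17 with quantile normalization and 0.082 without the mitochondrial genes, and -0.12 to -0.039 without 1 library (0.11 to 0.20 centred). The SNI versus JA median ranged over -0.18 to 0.091 without 1 library (-0.30 to -0.028 centred), and the PLM versus JA median over -0.26 to -0.026 (-0.11 to 0.10 centred).

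Genes changed sign as follows, given centred (the same with the replicate block on centred values), with quantile normalization and without mitochondrial genes. In SNI versus JA these were Abcg2 -0.11, -0.11 and -0.077, and Slc2a1 -0.036, -0.041 and -0.0051. In PLM versus SNI they were Cdh5 0.22, 0.21 and 0.11, Flt1 0.21, 0.18 and 0.11, Kdr 0.18, 0.16 and 0.052, and Mfsd2a 0.059 and 0.030, the last gene only in the first 2. In PLM versus JA they were Flt1 0.043 and Vwf 0.00062, both centred.

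Without 1 library as deposited, the ranges of the genes that changed sign were, in SNI versus JA, Abcg2 -0.18 to 0.18, Slc2a1 -0.059 to 0.22, Mfsd2a -0.15 to 0.077, Flt1 -0.13 to 0.047, Kdr -0.22 to 0.20 and Cdh5 -0.23 to 0.11. In PLM versus SNI they were Kdr -0.17 to 0.10, Cdh5 -0.11 to 0.036 and Flt1 -0.13 to 0.051, and in PLM versus JA Flt1 -0.13 to 0.0083, Kdr -0.29 to 0.13 and Cdh5 -0.26 to 0.076. On centred values they were, in SNI versus JA, Kdr -0.39 to 0.082, Abcg2 -0.26 to 0.063 and Slc2a1 -0.19 to 0.12, in PLM versus SNI Abcg2 -0.36 to 0.030, and in PLM versus JA Cldn5 -0.11 to 0.11, Flt1 -0.052 to 0.14, Kdr -0.21 to 0.26, Mfsd2a -0.18 to 0.018, Vwf -0.12 to 0.10 and Cdh5 -0.11 to 0.21.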
